A study of Homo sapiens with 9 samples.

Results

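The genes of the proteasome were followed in MDA-MB-231 cells, an established human triple-negative breast cancer (TNBC) line, after treatment with the glycolysis inhibitor 2-deoxy-glucose (2-DG). The members are the genes whose symbol is PSM followed by a letter from A to G and a number, that is, the subunits of the proteasome, its activators and inhibitor, and its dedicated assembly factors. The rule found 48 of the 61552 genes listed, and it used no measured value. The cells carried no introduced change (labelled WT) and were kept in DMEM with fetal calf serum and antibiotics. They received phosphate-buffered saline (control, 0 mM 2-DG), 10 mM 2-DG or 20 mM 2-DG for 24 h, with 3 libraries in each of the 3 groups. All 9 libraries come from the same line, nothing in the labels says whether the libraries of a group are separate cultures, and the p-values below therefore measure only the spread between these libraries, which may be technical. The comparisons ask which transcripts change with 2-DG, given to restrict glucose use and with it lactate production. The sources used here give no measurement of either in these treated cultures.

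The proteasome is the protease that degrades most short-lived and damaged proteins once they carry ubiquitin chains. Its core particle is a barrel of alpha rings, which gate the entrance, and beta rings, which hold the proteolytic sites. A regulatory particle caps the barrel. Its base holds a ring of ATPases that unfold the substrate, and its lid removes the ubiquitin chain. In cells exposed to interferon the catalytic subunits are exchanged for immunoproteasome subunits, which alter the peptides offered to T cells. Most subunit genes are driven together by the transcription factor NFE2L1 (also called NRF1), which is activated when proteasome activity falls.

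The values are FPKM, that is, reads scaled by the length of the gene and by the total of the library. A library held between 30974968 and 40843638 reads on genes, as recovered from the FPKM values themselves. The line's mesenchymal markers were present in all 9 libraries (VIM 243 to 313 FPKM, CD44 52.9 to 74.1 FPKM), the hormone receptors ESR1 and PGR lay at or below 0.0204 FPKM, and the leukocyte markers PTPRC and CD3E at or below 0.0327 FPKM. The epithelial marker CDH1 ranged from 0.0479 to 0.417 FPKM, the endothelial marker PECAM1 from 0.826 to 1.95 FPKM and the fibroblast marker PDGFRB from 0.202 to 0.493 FPKM. Differences were tested with limma on log2(FPKM + 1), with Benjamini-Hochberg adjustment over the 16572 genes that passed a filter on low reads, and a gene was called at an adjusted p under 0.05. Every log2 fold change below is on this log2(FPKM + 1) scale, which understates the change of low genes. FPKM is relative to the library total, so fewer transcripts of a gene and more transcripts of all others cannot be told apart.

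Of the 48 members, 46 were tested. PSMA8, an alpha subunit known from the testis, was listed at 0 in all 9 libraries, and PSMB11, the subunit of the thymus proteasome, had 1 read in a single control library. Among the members tested, PSMD2 had the most reads (24001 to 35489 per library) and PSMA2 the fewest (5 to 18 per library).

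Most proteasome transcripts were lower after 2-DG, and the decreases were shallow. At 20 mM 2-DG, 27 of the 46 members (58.7%) were called lower than in the control, where 21.6% of all genes tested were called lower. A single member, the inhibitor gene PSMF1, was called higher (background 15.4%). At 10 mM 2-DG, 28 members (60.9%) were called lower, against a background of 17.5%, and again only PSMF1 was called higher (background 12.1%). The median log2 fold change of the members was -0.27 at 20 mM and -0.31 at 10 mM, while that of all genes tested was -0.021 and -0.011. The members ranged at 20 mM from -0.92 for the immunoproteasome gene PSMB9 to 0.27 for PSMF1, and 39 of 46 lay below 0, as did 53.8% of all genes. At 10 mM 38 lay below 0 (52.2% of all genes). On the log2(FPKM + 1) scale no member changed by more than 1 at either dose. The study asked for a log2 change beyond 1 in size and a p below 0.05 to call a gene differentially expressed, and on this scale no member met both. Without the pseudocount, PSMB9 passed the fold threshold at 20 mM (log2 ratio of the mean FPKM -1.04), the only member to do so at either dose. On the log2(FPKM + 1) scale 1.96% of all genes met both thresholds downwards and 0.965% upwards at 20 mM (1.16% and 0.579% at 10 mM).

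In 26 members all 6 libraries treated with 2-DG lay below the lowest control library, a pattern found in 20.4% of all genes tested, and PSMF1 was the member with all 6 above the highest control (15.3% of all genes). The treated and control libraries did not overlap downwards in 33 members at 20 mM (background 29.9%) and in 27 at 10 mM (background 22.7%). They did not overlap upwards in PSMF1 and PSMG4 at 20 mM (background 23.3%) and in PSMF1 at 10 mM (background 17.8%). These counts depend on how the libraries are scaled. With upper-quartile factors in place of the library total, 19 members were called lower at 20 mM (background 16.8%) and 21 at 10 mM (background 14%), and the share of higher genes among all calls at 20 mM went from 41.5% to 54.1%. PSMF1 stayed the only member called higher at either dose with these factors.

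**Figure D1:**
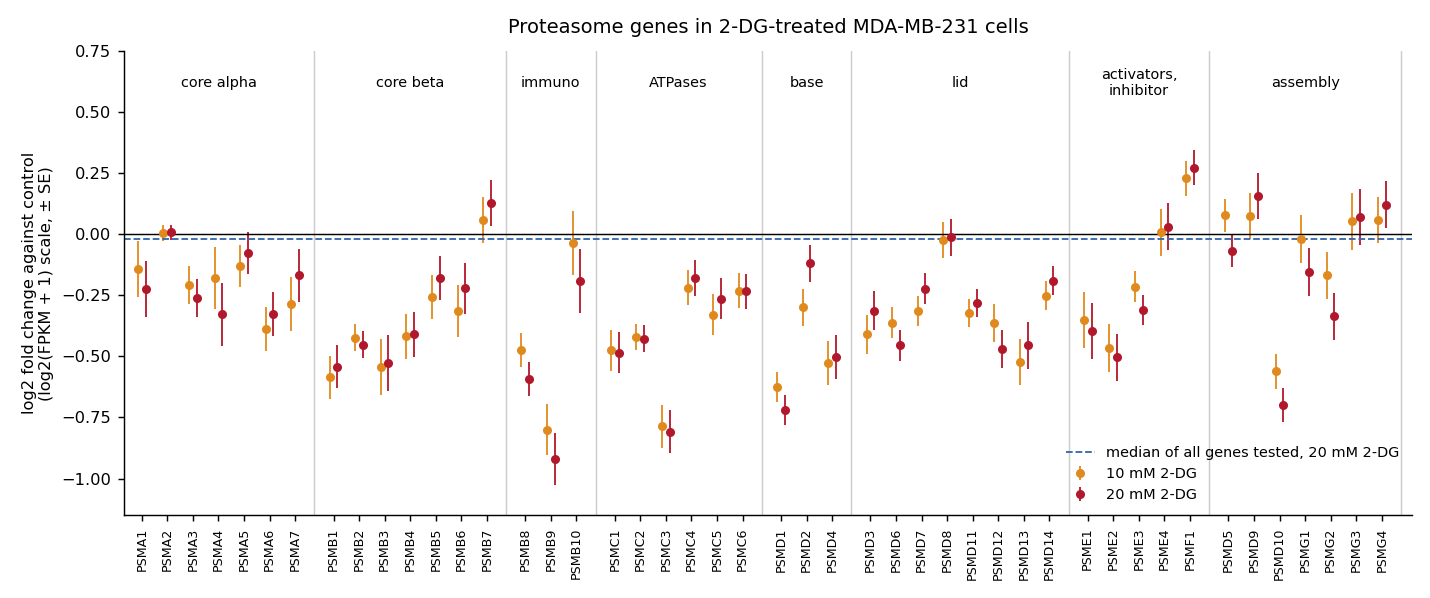
Log2 fold change against control on the log2(FPKM + 1) scale (y axis) of the 46 tested members, grouped by part of the particle (x axis), at 10 mM (orange) and 20 mM 2-DG (red). Points are limma estimates, bars are 1 SE from 3 libraries per group, and the dashed line is the median of all genes tested at 20 mM (-0.021). Most points lie below the line in the beta ring, the ATPases and the lid, and PSMB9 is the lowest and PSMF1 the highest.

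Gene by gene, 25 members were called lower at both doses. The share of all genes called lower at both doses is not given here. It cannot exceed the 17.5% of all genes called lower at 10 mM. PSMA3 and PSMG2 were called lower at 20 mM only, and PSMB6, PSMC4 and PSMD2 at 10 mM only. A call at a single dose does not show a difference between the doses. Between 20 mM and 10 mM 2-DG no member was called in either direction by limma, as was no gene among all 16572 tested, of which 1139 (6.87%) had an unadjusted p under 0.05. Limma-voom on the recovered reads also called 0 members. Among the members PSMD2 alone had one (log2 fold change 0.18, unadjusted p = 0.0385, adjusted p = 0.703). The median difference of the members between the doses was 0.0093, and single members lay between -0.17 (PSMG2) and 0.18 (PSMD2). In that comparison the libraries did not overlap for 2 members above, PSMD2 and PSMD9 (background 4.71%), and 2 below, PSMD1 and PSMD5 (background 7.14%). Since both doses are compared with the same control libraries, the 2 sets of fold changes are not independent.

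The summed FPKM of all members was 2581 ± 151 (SD, n = 3) in the control libraries, 2064 ± 208 at 10 mM and 2122 ± 85.0 at 20 mM. In recovered reads, the members took 7444 to 8114 reads per 1000000 in the control libraries, 5905 to 6749 with 10 mM and 6140 to 6568 with 20 mM. The groups treated with 2-DG thus lay below the control without overlap, and they overlapped each other. By part of the particle, the immunoproteasome sum stood lowest against its control mean (69.6% at 10 mM and 62.7% at 20 mM), followed by the ATPase ring (70.0% and 70.6%). The assembly factors stood highest, at 94.6% and 89.2%. The sums are led by the genes with the highest FPKM and were not tested.

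**Figure D2:**
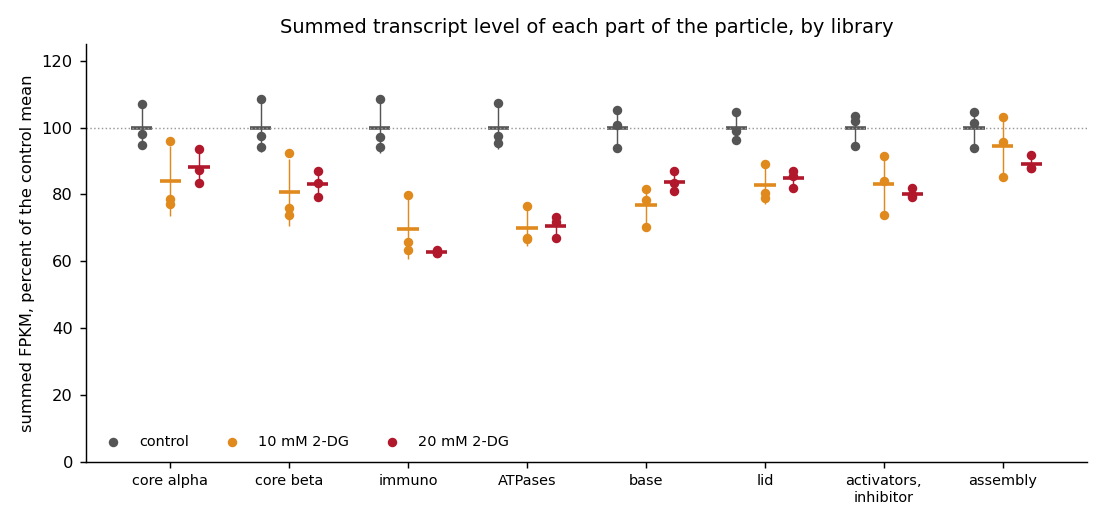
Summed FPKM of the members of each part of the particle in every library, as a percent of that part's control mean (y axis, from 0), by part (x axis). Points are libraries, thick bars the mean and thin lines 1 SD of 3 libraries; the ATPase ring means were 70.0% at 10 mM and 70.6% at 20 mM, and the assembly factor libraries at 10 mM overlapped the control.

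Levels within the particle were uneven in the files, although subunits occur in equal numbers in the assembled barrel. In the control, mean FPKM in the alpha ring ran from 272 for PSMA7 to 0.0349 for PSMA2, whereas in the beta ring it ran only from 183 for PSMB7 to 56.2 for PSMB2, a 3.25-fold span. Dividing the recovered reads by the length of the principal transcript in place of the length the authors used left the beta ring's span at 3.54-fold. The 5 members with over 1% of their coding bases inside another annotated gene on the same strand (GENCODE 29, GRCh38) were among the lowest. They were PSMA2, with 100% of its coding bases in AC010132.3, PSMA1 (91.0%, in AC018523.2), PSMA6 (89.7%, in AL121594.1), PSMD9 (68.3%, in AC069503.2) and PSMB10 (60.0%, in AC040162.1). Their control FPKM was 0.0349, 5.00, 2.45, 1.64 and 5.25. How reads in shared exons were assigned is not given in the sources used here, so the levels of these 5 genes, and their differences, are uncertain. On the opposite strand, PSMC1 shared 47.7%, PSMD7 30.04%, PSMC5 10.0% and PSMD11 7.19% of their coding bases with another gene, and whether the counting used strand is not given. Processed copies also exist: 42 pseudogene rows carry the name of 16 members, and their summed FPKM over the 9 libraries came to 79.5% of that of the parent for PSMA2, 25.5% for PSMA6, 21.3% for PSMC1, 5.96% for PSME2 and 4.22% for PSMD10, and to at most 1.04% for the other parents.

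**Figure D3:**
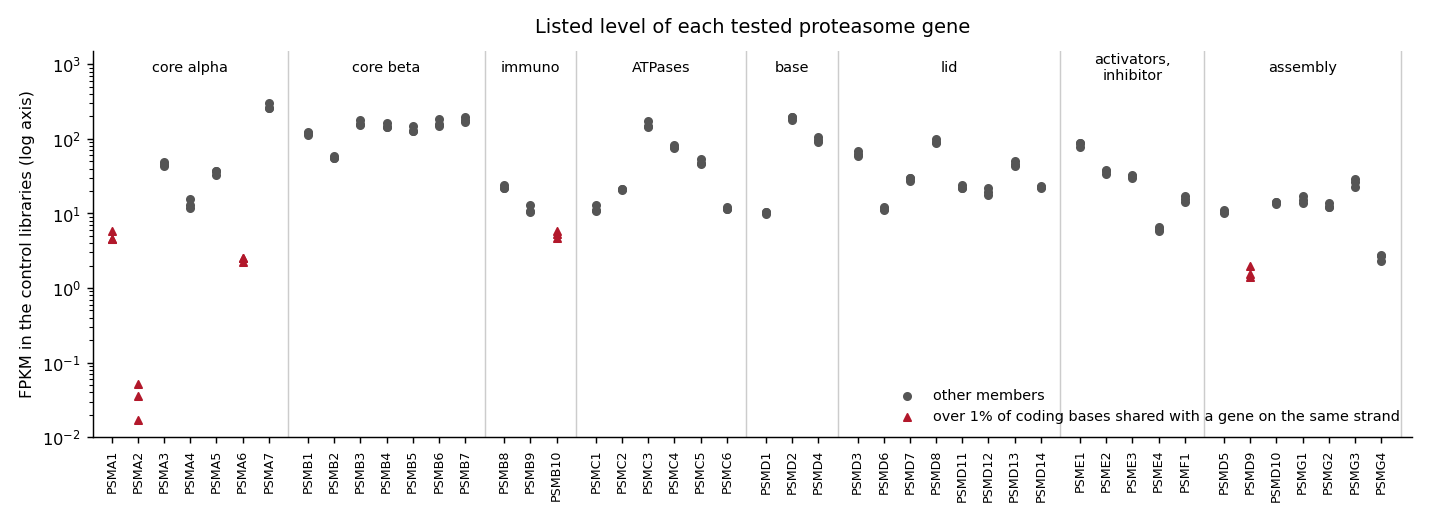
FPKM in the 3 control libraries (y axis, log axis) of each of the 46 tested members, grouped by part of the particle (x axis). Red triangles are the 5 members that share over 1% of their coding bases with another gene on the same strand, from 5.25 FPKM (PSMB10) down to 0.0349 FPKM (PSMA2); grey circles are the others.

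In the alpha ring, which gates the entry to the barrel, 2 of 7 tested members were called lower at 20 mM and 1 at 10 mM, shares near those of all genes (21.6% and 17.5%), and the median log2 fold change was -0.22 and -0.18. PSMA3 fell at 20 mM (log2 fold change -0.26 ± 0.078 SE, adjusted p = 0.0255) and PSMA6 at both doses (-0.33 and -0.39, adjusted p = 0.0184 and 0.0104). Neither gene was followed singly through the alternative fits. The lowest estimate at 20 mM belonged to PSMA4. Its FPKM was 12.8, 11.9 and 15.9 in the control, 9.86, 12.2 and 13.4 at 10 mM, and 10.6, 11.4 and 9.45 at 20 mM. The 20 mM libraries lay below all controls, but the spread was wide and the change did not pass the test (-0.33 ± 0.13, adjusted p = 0.0692). The highest belonged to PSMA2, whose FPKM between 0.0168 and 0.0577 overlapped in all 3 groups and rests on at most 18 reads.

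In the beta ring, which holds the active sites, PSMB1, PSMB2, PSMB3 and PSMB4 fell at both doses, and none of these 4 is catalytic. PSMB1 had the lowest estimate of the ring. Its FPKM was 124, 113 and 121 in the control, 69.8, 89.2 and 79.3 at 10 mM, and 82.9, 84.8 and 77.1 at 20 mM. No treated library reached the controls (log2 fold change -0.59 ± 0.087 at 10 mM and -0.54 ± 0.087 at 20 mM, adjusted p = 0.000869 and 0.00102). PSMB2, PSMB3 and PSMB4 followed at 20 mM with -0.45, -0.53 and -0.41 (adjusted p = 0.000207, 0.00506 and 0.00668).

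The 3 constitutive catalytic subunits behaved less evenly. PSMB5 carries the chymotrypsin-like site, the main target of proteasome inhibitors. Its FPKM was 147, 129 and 128 in the control, 107, 129 and 103 at 10 mM, and 122, 121 and 113 at 20 mM. The 20 mM libraries lay just below the controls, and neither dose passed the test (-0.26 and -0.18, adjusted p = 0.0575 and 0.150). PSMB6, with the caspase-like site, read 182, 151 and 159 FPKM in the control, 123, 155 and 119 at 10 mM, and 148, 137 and 136 at 20 mM. It was called lower at 10 mM only (-0.31 ± 0.11, adjusted p = 0.0493), although a 10 mM library lay inside the control range, and 12 of 17 alternatives lost that call (adjusted p from 0.00486 to 0.157). PSMB7, with the trypsin-like site, had the highest estimate of the ring. It read 198, 171 and 180 FPKM in the control, 174, 215 and 184 at 10 mM, and 216, 198 and 186 at 20 mM, so that the 3 groups overlapped (0.13 ± 0.094 at 20 mM, adjusted p = 0.320).

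Of the 3 tested immunoproteasome genes, PSMB8 and PSMB9 fell at both doses, and the median of the 3 was -0.59 at 20 mM, the lowest of any part at that dose, and -0.47 at 10 mM. PSMB9 replaces PSMB6 in the barrel. It is annotated on chromosome 6 from 32844136 to 32859585 (GRCh38, plus strand, ENSG00000240065). Its FPKM was 12.9, 10.4 and 10.8 in the control, 5.45, 7.11 and 5.74 at 10 mM, and 5.16, 5.63 and 5.70 at 20 mM. Every treated library was far below every control, and the log2 fold change of -0.92 ± 0.11 at 20 mM (adjusted p = 0.000128) and -0.80 ± 0.11 at 10 mM (adjusted p = 0.000441) was the lowest among the members at both doses. PSMB8, which replaces PSMB5, read 24.1, 22.1 and 22.1 FPKM in the control, 14.9, 17.7 and 15.8 at 10 mM, and 15.2, 14.5 and 14.5 at 20 mM. Its groups did not overlap either (-0.47 ± 0.070 at 10 mM and -0.59 ± 0.070 at 20 mM, adjusted p = 0.000869 and 0.000157).

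PSMB10, which replaces PSMB7, did not pass the test. It read 5.75, 4.65 and 5.36 FPKM in the control, 4.55, 6.61 and 4.35 at 10 mM, and 4.63, 4.44 and 4.32 at 20 mM. The 10 mM libraries spread to both sides of the control, and at 20 mM the estimate was -0.19 ± 0.13 (adjusted p = 0.287). As given above, 60.0% of its coding bases lie in another gene on the same strand.

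**Figure D4:**
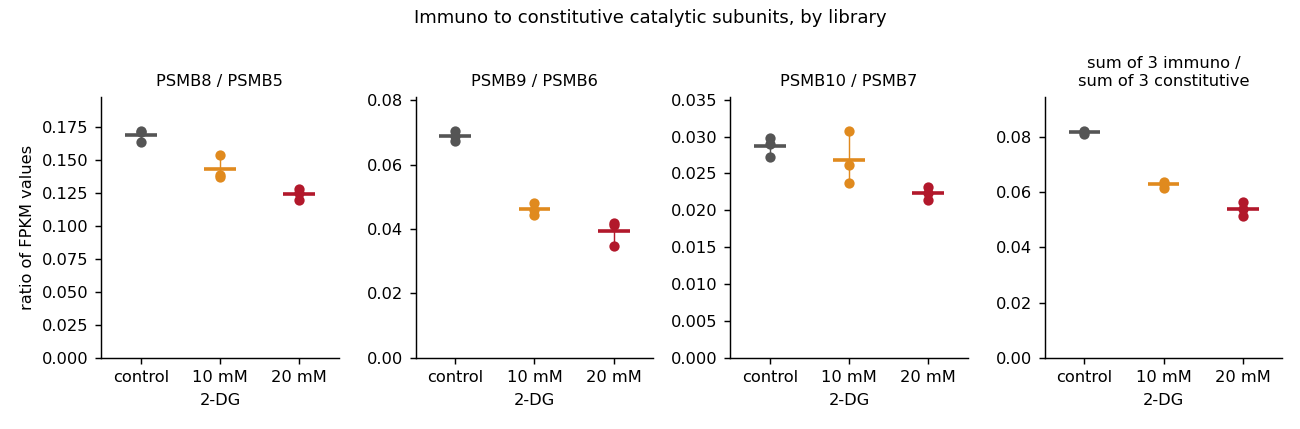
Ratio of the FPKM of each immunoproteasome catalytic subunit to the constitutive subunit it replaces, and of their sums (y axes, from 0), in every library of the control, 10 mM and 20 mM groups (x axes). Points are libraries, thick bars the mean and thin lines 1 SD of 3 libraries; the ratio of sums lies between 0.0810 and 0.0823 in the control and between 0.0514 and 0.0563 at 20 mM.

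Set against the subunit it replaces, PSMB9 was 0.0690 ± 0.0016 of PSMB6 in FPKM in the control (SD, n = 3), 0.0461 ± 0.0018 at 10 mM and 0.0393 ± 0.0039 at 20 mM. PSMB8 was 0.169 ± 0.0045 of PSMB5 in the control libraries, 0.143 ± 0.0091 at 10 mM and 0.124 ± 0.0042 at 20 mM. In both ratios every library of a group lay apart from every library of the others. PSMB10 over PSMB7 spanned 0.0237 to 0.0308 at 10 mM and so covered the control range of 0.0272 to 0.0298, while at 20 mM it spanned 0.0214 to 0.0232, below every library of the other groups. The sum of the 3 immunoproteasome genes over the sum of the 3 constitutive catalytic genes was 0.0810 to 0.0823 in the control, 0.0616 to 0.0639 at 10 mM and 0.0514 to 0.0563 at 20 mM. A ratio of FPKM values within a library does not depend on the library's scaling, but its size depends on the gene lengths used. The length used was 3.10, 4.27 and 1.33 times the principal transcript for PSMB8, PSMB9 and PSMB10. For PSMB5, PSMB6 and PSMB7 it was 1.20, 1.70 and 1.82 times. With the principal transcript's length, the control means were 70.5 for PSMB8 and 161 for PSMB5. They were 48.4 for PSMB9 and 279 for PSMB6, and 7.01 for PSMB10 and 334 for PSMB7. The FPKM ratios are a description, with no test.

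Promoter sequence is shown for immunoproteasome and activator genes that interferon is known to induce, because that response acts through a promoter element with known letters. RefSeq windows (GRCh38.p14, 250 bases before to 50 after each annotated start) were found for 42 of the 48 members. The interferon-stimulated response element, searched as GAAA, any 2 bases and GAAA again on both strands, occurred in the windows of 7 members (16.7%), namely PSMA4, PSMB4, PSMB8, PSMB10, PSME1, PSME2 and PSMG4, and in 4.38% of the genes with a window. Of the 7, PSMB4, PSMB8, PSME1 and PSME2 were called lower at both doses, and PSMA4, PSMB10 and PSMG4 at neither. That share is near the one of all members, of which 25 of 46 tested were called lower at both doses. The matches of the 4 immunoproteasome and activator genes follow, with the match in capitals and written along the gene's strand.
PSMB8 (chr6:32844018-32844081, minus strand): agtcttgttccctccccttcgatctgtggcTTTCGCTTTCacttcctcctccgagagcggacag
PSMB10 (chr16:67936832-67936901, minus strand): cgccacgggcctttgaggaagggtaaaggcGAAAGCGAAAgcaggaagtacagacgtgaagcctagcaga
PSME1 (chr14:24136169-24136223, plus strand): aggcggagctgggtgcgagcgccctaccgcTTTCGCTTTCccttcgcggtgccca
PSME2 (chr14:24146599-24146668, minus strand): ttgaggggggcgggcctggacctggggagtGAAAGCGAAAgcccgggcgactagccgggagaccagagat
In PSMB10 and PSME2 the match ends 11 and 18 bases before the start, in PSMB8 it spans the start, and in PSME1 it lies just past it. A match is a description of the letters only.

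PSMB9 has no such match in its window. The antioxidant response element, searched as TGACNNNGC on both strands, is the element through which NFE2L1 and its relative NFE2L2 bind, and it occurred in the windows of 15 members (35.7%), against 16.1% of the genes with a window. PSMB9 is among the 15, with the match (in capitals, on the reverse strand) ending 139 bases before the start.
PSMB9 (chr6:32854014-32854082, plus strand): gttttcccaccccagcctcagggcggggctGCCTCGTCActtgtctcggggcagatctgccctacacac
The start of PSMB9 used here (chromosome 6, position 32854192) lies 488 bases from a start of TAP1 (position 32853704), which encodes a subunit of the peptide transporter for antigen presentation and runs in the opposite direction. TAP1 had a mean FPKM of 21.3 ± 1.32 in the control and 20.9 ± 1.01 at 20 mM (log2 fold change -0.024, adjusted p = 0.843). The difference between these neighbours was not tested. The C/EBP-ATF element (TGATGNAA, 4.46% of the genes with a window) occurred in PSMF1 alone among the members, and the ER stress element (CCAAT, any 9 bases and CCACG, 0.0916%) in 0 of them.

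In the ATPase ring 5 of 6 members were called lower at 20 mM (21.6% of all genes) and all 6 at 10 mM (17.5% of all genes). PSMC1, PSMC2, PSMC3, PSMC5 and PSMC6 fell at both doses and PSMC4 at 10 mM, and the ring had a median of -0.35 on the log2 scale at 20 mM (-0.38 at 10 mM). PSMC3 (chromosome 11, 47418769 to 47426473, minus strand, ENSG00000165916), an ATPase that docks with its tail onto the alpha ring, had the lowest estimate. Its FPKM was 174, 146 and 151 in the control, 84.5, 101 and 86.8 at 10 mM, and 91.4, 91.6 and 84.6 at 20 mM. All treated libraries lay well below the controls (-0.79 ± 0.087 at 10 mM and -0.81 ± 0.087 at 20 mM, adjusted p = 0.000151 and 8.77e-05). PSMC3 had the highest mean FPKM of the ring and PSMC1 the lowest in the control, 157 against 11.6, and they stood at 89.2 against 8.01 FPKM at 20 mM. PSMC4 had the highest estimate and read 82.9, 79.0 and 75.6 FPKM in the control, 66.7, 74.0 and 63.4 at 10 mM, and 73.3, 71.1 and 65.2 at 20 mM. Its treated libraries lay just below the controls, and its call at 10 mM (-0.22 ± 0.072, adjusted p = 0.0468) was lost in 12 of 17 alternatives (adjusted p from 0.0139 to 0.187).

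The 3 other subunits of the base are the scaffolds PSMD1 and PSMD2 and the ubiquitin receptor PSMD4. PSMD1 read 9.87, 10.4 and 10.6 FPKM in the control, 6.28, 6.28 and 6.34 at 10 mM, and 5.80, 6.07 and 5.66 at 20 mM. Its libraries hardly varied within a group and were far apart between control and treated groups (-0.63 ± 0.062 at 10 mM and -0.72 ± 0.062 at 20 mM, adjusted p = 7.56e-05 and 1.94e-05). PSMD2, its partner in the base, read 199, 195 and 180 FPKM in the control, 166, 160 and 141 at 10 mM, and 182, 176 and 170 at 20 mM. It was lower at 10 mM (-0.30 ± 0.075, adjusted p = 0.0143), and at 20 mM its libraries reached into the control range (-0.12, adjusted p = 0.249). The 10 mM call was lost without control replicate 1 or with upper-quartile factors (adjusted p from 0.00625 to 0.0567 over 17 alternatives). PSMD4 fell by 0.50 ± 0.090 on the log2 scale at 20 mM (adjusted p = 0.00193) and by 0.53 ± 0.090 at 10 mM (adjusted p = 0.00204).

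In the lid, 7 of 8 members fell at both doses, with a median of -0.30 at 20 mM and -0.34 at 10 mM. Of all genes, 21.6% were called lower at 20 mM and 17.5% at 10 mM. PSMD12, a scaffold of the lid, had the lowest estimate at 20 mM. It read 17.8, 19.1 and 21.9 FPKM in the control, 15.2, 13.98 and 15.8 at 10 mM, and 13.7, 13.999 and 13.8 at 20 mM (-0.47 ± 0.079, adjusted p = 0.00126). The treated libraries did not overlap the controls. PSMD14, the deubiquitinase that cuts the chain from the substrate, read 22.6, 21.8 and 23.2 FPKM in the control, 17.97, 20.01 and 18.3 at 10 mM, and 19.0, 20.4 and 19.5 at 20 mM. Its groups did not overlap the control either, though the change was small (-0.25 ± 0.059 at 10 mM and -0.19 ± 0.059 at 20 mM, adjusted p = 0.0107 and 0.0313). The 20 mM call was lost in 9 of 17 alternatives (adjusted p from 0.0167 to 0.250). PSMD8 was the exception in the lid. It read 101, 89.0 and 90.6 FPKM in the control, 84.5, 100 and 91.4 at 10 mM, and 95.2, 93.2 and 89.0 at 20 mM, and its estimates of -0.023 and -0.013 (adjusted p = 0.853 and 0.914) changed sign with the scaling.

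**Figure D5:**
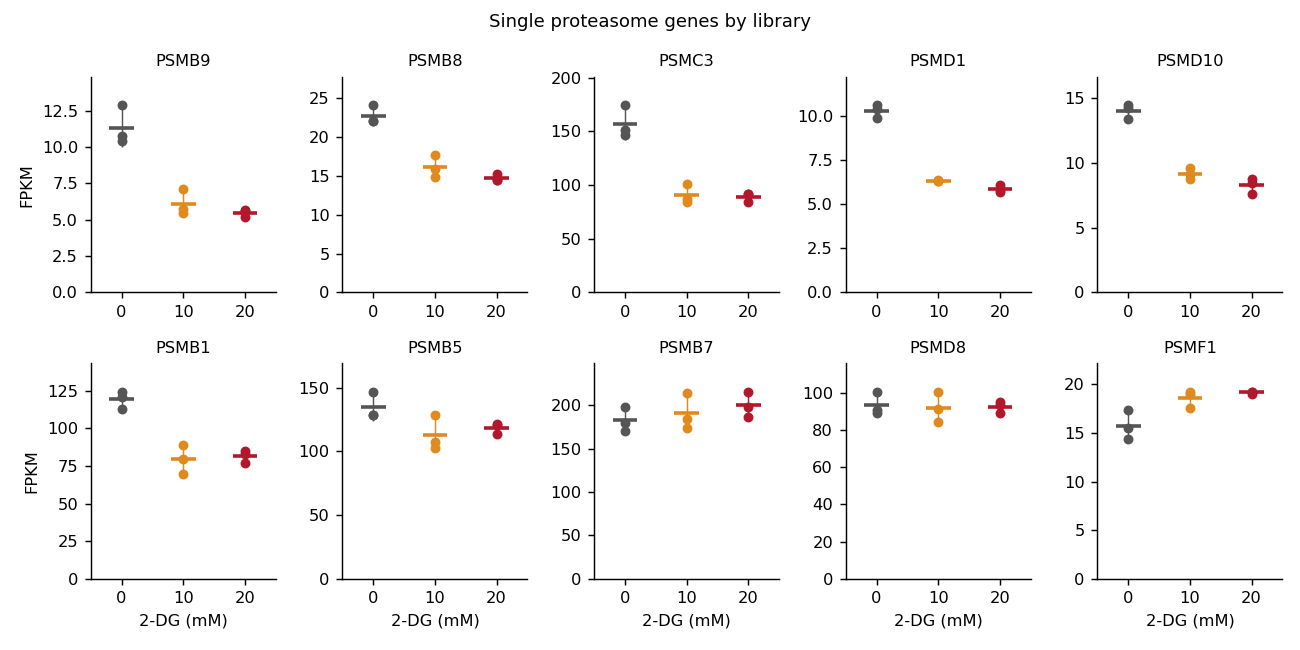
FPKM (y axes, from 0) in every library of 10 members at 0, 10 and 20 mM 2-DG (x axes). Points are libraries, thick bars the mean and thin lines 1 SD of 3 libraries; the treated libraries of PSMB9, PSMB8, PSMC3, PSMD1, PSMD10 and PSMB1 lie below all controls, those of PSMF1 above, and those of PSMB7 and PSMD8 overlap them.

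Among the activators, which open the barrel in place of the regulatory particle, PSME1, PSME2 and PSME3 fell at both doses. PSME1 and PSME2 form the interferon-induced ring. PSME1 read 88.0, 78.6 and 88.3 FPKM in the control, 54.7, 79.6 and 66.7 at 10 mM, and 64.4, 66.3 and 61.9 at 20 mM. The 20 mM libraries lay below the controls (-0.40 ± 0.11, adjusted p = 0.0216), while at 10 mM a library reached into the control range (-0.35 ± 0.11, adjusted p = 0.0432). The 10 mM call was lost in 12 of 17 alternatives (adjusted p from 0.00386 to 0.127) and the 20 mM call in 7 (adjusted p from 0.00322 to 0.0792). PSME2 read 37.5, 34.3 and 37.7 FPKM in the control, 22.2, 30.5 and 26.4 at 10 mM, and 24.99, 26.0 and 25.2 at 20 mM. It did not overlap the control at either dose (-0.47 ± 0.098 and -0.50 ± 0.098, adjusted p = 0.00594 and 0.00293), and both calls were kept in every alternative fit. PSME1 over PSME2, partners in the same ring, was 2.33 ± 0.032 in the control and 2.52 ± 0.065 at 20 mM, with no test of the difference.

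PSME3, which forms a nuclear activator that interferon does not induce, read 30.2, 32.3 and 33.2 FPKM in the control, 27.7, 25.5 and 28.9 at 10 mM, and 24.7, 26.1 and 25.7 at 20 mM. Its treated libraries lay below the controls (-0.21 ± 0.062 and -0.31 ± 0.062, adjusted p = 0.0274 and 0.00358), and its 10 mM call was lost in 5 of 17 alternatives (adjusted p from 0.0262 to 0.0882). PSME4, an activator linked to acetylated histones, was not called (0.031 ± 0.096 at 20 mM, adjusted p = 0.832).

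PSMF1 (chromosome 20, 1113263 to 1189415, plus strand, ENSG00000125818) was the member that rose. Its protein binds the core particle and was named for inhibiting it in the test tube. It read 17.3, 14.3 and 15.5 FPKM in the control, 17.5, 19.2 and 19.0 at 10 mM, and 19.2, 19.0 and 19.3 at 20 mM. Every treated library lay above every control, by a narrow margin at 10 mM (0.23 ± 0.071 at 10 mM and 0.27 ± 0.071 at 20 mM, adjusted p = 0.0361 and 0.0137). The 20 mM call was lost without control replicate 2 (adjusted p = 0.0522, with a range from 0.00520 to 0.0522 over 17 alternatives), and the 10 mM call in 9 of 17 (adjusted p from 0.0132 to 0.125). Its C/EBP-ATF match, in capitals and on the reverse strand, lies just past the annotated start.
PSMF1 (chr20:1113244-1113292, plus strand): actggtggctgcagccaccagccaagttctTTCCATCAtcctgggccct

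The assembly factors had the median nearest to 0 at both doses. Of 7, 2 were called lower at 20 mM and 1 at 10 mM, again near the shares of all genes (21.6% and 17.5%). PSMG1 to PSMG4 help to build the alpha ring, and PSMD5, PSMD9 and PSMD10 the base. PSMD10, also known as gankyrin, was the exception. It read 14.2, 13.4 and 14.4 FPKM in the control, 8.74, 9.62 and 9.12 at 10 mM, and 7.56, 8.44 and 8.76 at 20 mM. Its treated libraries lay far below the controls (-0.56 ± 0.070 and -0.70 ± 0.070, adjusted p = 0.000316 and 5.48e-05). PSMG2 fell at 20 mM (-0.34 ± 0.096, adjusted p = 0.0206) and was not followed singly through the alternative fits. PSMD9 had the highest estimate and read 1.95, 1.41 and 1.56 FPKM in the control, 1.63, 1.76 and 1.91 at 10 mM, and 1.91, 1.92 and 1.95 at 20 mM. Both doses overlapped the control, and the 20 mM libraries lay just above those at 10 mM (0.16 ± 0.094 at 20 mM, adjusted p = 0.226). The part's median was -0.068 at 20 mM and 0.053 at 10 mM.

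Proteins that act on or with the proteasome but are named otherwise were read in the same fit. Of 10 such genes, 2 were called lower at 20 mM, the proteasome-bound deubiquitinases UCHL5 (-0.48, adjusted p = 0.00943) and USP14 (-0.32, adjusted p = 0.00662), and 0 higher, which is near the share of all genes called lower (21.6%). At 10 mM 4 were called lower (17.5% of all genes). POMP, which matures the beta ring, was at 50.4 ± 8.29 FPKM in the control and 43.2 ± 4.27 at 20 mM and was not called (-0.21, adjusted p = 0.346).

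The next list holds NFE2L1, genes of its activation and turnover, and NFE2L2, a separate factor of the same family. Of these 6 genes, 4 were called higher at both doses, where 15.4% (20 mM) and 12.1% (10 mM) of all genes were, and 0 were called lower, with a median of 0.36 at 20 mM and 0.33 at 10 mM. NFE2L1 itself had a mean FPKM of 75.9 ± 4.66 in the control libraries, 104 ± 9.17 at 10 mM and 110 ± 2.97 at 20 mM (0.44 and 0.53, adjusted p = 0.00173 and 0.000419). SYVN1, the ubiquitin ligase of the endoplasmic reticulum that keeps NFE2L1 low, rose from 25.5 ± 1.49 to 45.3 ± 1.31 and 51.2 ± 0.377 FPKM (0.80 and 0.98, adjusted p = 9.28e-06 and 1.60e-06). NGLY1, which removes the sugars from NFE2L1, and NFE2L2 rose as well (0.35 and 0.36 at 20 mM, adjusted p = 0.00633 and 0.00632). DDI2, the protease that cuts NFE2L1 into its active form, was not called (0.28, adjusted p = 0.1003), nor was VCP (-0.015, adjusted p = 0.897). Transcript levels of these genes do not show the activity of NFE2L1, which was not measured here.

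Of 6 genes for ubiquitin and the enzymes that activate it, UBB was called lower at both doses, from 248 ± 8.496 FPKM in the control to 173 ± 8.21 at 20 mM (-0.52, adjusted p = 0.000540), and 0 were called higher, against 21.6% of all genes lower and 15.4% higher. Among the shuttle and receptor genes that bring ubiquitinated proteins to degradation, UBQLN1 was called lower at 20 mM (-0.31, adjusted p = 0.0150), and SQSTM1, the receptor that delivers them to autophagy, was called higher (0.59, adjusted p = 0.000177). SQSTM1 went from 180 ± 6.14 FPKM in the control to 272 ± 13.96 at 20 mM.

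Beside the immunoproteasome genes, 1 of 10 antigen processing genes was called lower at 20 mM (21.6% of all genes), TAP2 (-0.44, adjusted p = 0.00192), and 0 higher. IRF1, a transcription factor of the interferon response, was not called (-0.19, adjusted p = 0.129).

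The members deviated together between libraries of a group. Within the 10 mM group, replicate 2 gave the highest value for 30 of the 46 members and replicate 1 the lowest for 30, with median deviations from the group mean of 0.098 and -0.097 on the log2 scale. In the control group, replicate 2 gave the lowest value for 31 members and replicate 1 the highest for 26. The median deviation of all genes was at most 0.017 in size in any library, so the members' shift was not one of all genes, and its part in the results was not tested. Without 10 mM replicate 2, 30 members were called lower at 10 mM, and without control replicate 1, 22 were. The shares of all genes called in these fits are not given here.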

How the data were processed

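Total RNA of 9 MDA-MB-231 samples was extracted with an RNeasy kit, made into libraries with a SMARTER mRNA kit and sequenced on an Illumina instrument. The authors deposited FPKM values, 1 file per library, for 61552 genes. The submitters' processing notes name GRCh38 (hg38), and the aligner, the counter and the annotation release are not given in the sources used here. Whole reads were recovered as the total and gene lengths that make every FPKM value whole (lengths for all 32806 genes above 0, 99.8% to 99.9% of each total). They are not the authors' counts, and whether they are reads or fragments is not known.

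limma 3.58.1 (R 4.3.3) was fitted to log2(FPKM + 1) of all 9 libraries, with contrasts between the 3 groups, a trend of variance on mean, no replicate block, and p-values adjusted by Benjamini-Hochberg over 16572 genes. These had 10 or more reads, scaled to the median depth, in 3 or more libraries, and 15 or more in total. The steps were tested on simulated reads, drawn independently for each gene. That test therefore does not cover deviations that members share between libraries. The authors called their genes with DESeq2, which needs counts.

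The members, the parts and the partner lists were chosen with earlier results of these data known. Values per library are given, in each part, for the tested member with the highest and the lowest log2 fold change at 20 mM, for the catalytic pairs, and for PSME1, PSME2, PSME3 and PSMD14. Partner genes are named where called with the highest or lowest change of their list, with POMP, NFE2L1 and TAP1, and NGLY1, NFE2L2, DDI2, VCP, USP14, UBQLN1 and IRF1 were added after their values were seen, as were PSMA3, PSMA6, PSMB2, PSMB3, PSMB4, PSMC1, PSMD4, PSME4 and PSMG2. Replicates of a group correlated at 0.989 to 0.996 (Pearson, across genes) and differed by 4.76 to 59.1 times the sampling variance, so none were merged. By group this was 4.76 to 6.83 times at 20 mM, 14.8 to 22.6 in the control and 27.8 to 59.1 at 10 mM. The fit pooled the spread over the 3 groups, although the 10 mM libraries differed most. Nothing in the labels says that the replicate numbers pair the samples. Pseudocount, filter, scaling, threshold, block, limma-voom on the recovered reads, and each library were varied. Some partner genes are not reported here.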

Additional observations from a re-analysis of the deposited data

How the results depend on the processing

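The lower direction of the members' median held in all alternatives run for both doses. It lay between -0.30 and -0.24 at 20 mM and between -0.34 and -0.25 at 10 mM when each library was left out in turn, and moved to -0.18 at 20 mM with upper-quartile factors. The count of members called lower was 19 to 29 at 20 mM and 22 to 30 at 10 mM over the left-out libraries, 19 and 23 with median-ratio factors, 18 and 19 at an adjusted p under 0.01, and 0 and 0 under the study's thresholds on the log2(FPKM + 1) scale, where PSMB9 at 20 mM would pass without the pseudocount (-1.04). The count called higher went from 1 to 0 at both doses under the last 2 settings. It was 0 to 1 over the left-out libraries at each dose. At 20 mM it was 0 without control replicate 2, and at 10 mM it was 0 with all genes above 0 tested, and without control replicate 2 or 3, 10 mM replicate 2 or 3, or any of the 3 libraries at 20 mM.

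Whether same-numbered libraries share a culture or batch is not known, and correlations over so few libraries cannot settle it. Of 9 same-numbered pairs, 3 had a correlation of deviations over 0.1 (range -0.41 to 0.29). The highest value was in a differently numbered pair, control replicate 1 with 10 mM replicate 2 (0.52). With the replicate block, 25 members were called lower and 1 higher at 20 mM, and 25 lower and 0 higher at 10 mM. Limma-voom on the recovered reads called 28 and 30 lower, and its version with size factors by median ratio, chosen after seeing the data, 22 and 23. The shares of all genes called with the block or with limma-voom are not given here.

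Of the 27 calls of the members given by library, 18 were kept in every alternative fit, and the 9 others are named with their ranges in the results. Other called members, among them PSMA3, PSMA6, PSMB2, PSMB3, PSMB4, PSMD4 and PSMG2, were followed only in the counts. How firm their single calls are is therefore not shown. The estimates that changed sign belonged to uncalled results. PSMD8 at 20 mM became 0.042 with median-ratio factors, 0.082 with upper-quartile factors, 0.043 with limma-voom and median-ratio factors, and -0.046 to 0.042 over the left-out libraries. PSMD8 at 10 mM became 0.016, 0.042 and 0.016 under the same 3 scalings, and -0.085 to 0.036 over the left-out libraries. PSMB10 at 10 mM became 0.021 with upper-quartile factors, 0.010 with limma-voom and median-ratio factors, and -0.19 to 0.060 over the left-out libraries. PSMB7 at 10 mM lay between -0.030, without 10 mM replicate 2, and 0.12. PSMA2 lay between -0.0032 and 0.021 at 20 mM and between -0.0074 and 0.020 at 10 mM over the left-out libraries. The cause was not tested. Depth limits PSMA2, with at most 18 reads in a library. Beyond it, the spread between 3 libraries and the unknown assignment of reads in shared exons limit these results.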
